A study of Homo sapiens with 12 samples.

Results

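The genes described here make fatty acids from acetyl-CoA and then desaturate and lengthen them. They are the 10 lines of the deposited count table whose gene name is SREBF1, ACLY, ACSS2, ACACA, FASN, SCD, FADS1, FADS2, ELOVL5 or ELOVL6, out of 40591 named lines. All 10 passed the filter on low counts, as did 15179 genes in all. Poly(A) RNA of ARPE-19, an established human line derived from retinal pigment epithelium (RPE), was sequenced in 12 libraries, which form 4 groups of 3. The WT label names no added gene, and the other groups are stable lines that had expressed an open reading frame (ORF) for 4 days. The GFP group expressed the green fluorescent protein and is used here as the control line. The GSTA4 group expressed GSTA4, a glutathione S-transferase that conjugates the lipid aldehyde 4-hydroxynonenal. OSK was taken to stand for the reprogramming factors OCT4 (POU5F1), SOX2 and KLF4. The promoter of the ORFs, the number of clones behind each line and the way WT cells were kept are not given in the sources used here. The labels do not say that the 3 libraries of a group came from separate cultures, so p-values measure the spread between these libraries, which may be technical. An effect of an ORF and any other difference between the lines cannot be told apart.

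Fatty acids are built in the cytosol from acetyl-CoA, which ACLY cuts from citrate and ACSS2 makes from acetate. ACACA carboxylates acetyl-CoA to malonyl-CoA, and FASN joins malonyl units into palmitate. ELOVL6 lengthens palmitate to stearate, SCD puts a double bond into saturated chains to give oleate and palmitoleate, and FADS2, ELOVL5 and FADS1 act in turn on dietary polyunsaturated fatty acids. SREBF1 encodes SREBP-1, a transcription factor made as a membrane protein of the endoplasmic reticulum. INSIG proteins hold it there with its escort SCAP until it moves to the Golgi and is cut by the site-1 and site-2 proteases. It is the classical activator of the genes of this pathway, its own included. The RPE carries very long polyunsaturated chains, since it takes up the outer segments of photoreceptors each day and returns docosahexaenoate to the retina.

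The members lie on chromosomes 4, 6, 10, 11, 17 and 20 of GRCh38 (GENCODE 29), with SREBF1, ACLY, ACACA and FASN on chromosome 17. SCD lies at chr10:100347124-100364834. FADS1 (chr11:61799625-61829318, minus strand) and FADS2 (chr11:61792980-61867354, plus strand) overlap head to head. In the RefSeq set used here, the FADS1 start lies 800 and 599 bases beyond the listed FADS2 starts, in the direction of FADS2. From these starts each gene reads through the other's start, and the FADS1 span lies within that of FADS2. The set may lack other starts, so the listed FADS2 starts, and the FADS2 run printed below, need not be those of its main transcript. Their exons overlap by 490 bases on opposite strands, 4.79% of the FADS1 exons and 4.44% of those of FADS2. SREBF1 shares 556 exon bases with RAI1 on the other strand, 6.92% of its exons. FADS2 also shares 49 exon bases with FEN1 on the same strand. The strand setting of the counting is not given in the sources used here. A small part of these genes' reads may thus belong to the partner, or reads over shared bases may be missing from both. RefSeq start sites (GRCh38.p14) were matched for 9 of the 10 members, in 14 windows, and FASN was not among them. Upstream sequence is printed for 5 members, because these genes moved in different ways: SREBF1 and ACSS2 were higher in the GSTA4 line than in the GFP line, and SCD, FADS1 and FADS2 were lower. Each run reads 5′ to 3′ on the gene's strand, starts 250 bases before the start site and stops where the first exon of any GENCODE transcript begins. Capitals mark the NF-Y box CCAAT and the Sp1 box GGGCGG, or their reverse complements.
SREBF1, minus strand, chr17:17837003-17837236: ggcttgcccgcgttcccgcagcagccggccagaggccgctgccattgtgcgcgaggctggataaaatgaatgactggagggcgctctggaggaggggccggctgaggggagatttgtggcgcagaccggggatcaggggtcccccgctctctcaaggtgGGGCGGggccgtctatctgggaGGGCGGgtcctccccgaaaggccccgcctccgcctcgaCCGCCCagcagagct
ACSS2, first start, plus strand, chr20:34874739-34874941: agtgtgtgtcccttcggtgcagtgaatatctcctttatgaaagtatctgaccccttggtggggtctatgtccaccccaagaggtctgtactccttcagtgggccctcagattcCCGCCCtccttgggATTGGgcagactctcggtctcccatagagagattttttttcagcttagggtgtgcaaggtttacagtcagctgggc
SCD, plus strand, chr10:100346983-100347123: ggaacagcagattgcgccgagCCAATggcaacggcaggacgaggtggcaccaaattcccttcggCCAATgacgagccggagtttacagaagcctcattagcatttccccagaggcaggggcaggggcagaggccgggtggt
FADS1, minus strand, chr11:61817198-61817253: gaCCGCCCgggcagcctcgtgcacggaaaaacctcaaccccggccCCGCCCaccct
FADS2, second start, plus strand, chr11:61816154-61816255: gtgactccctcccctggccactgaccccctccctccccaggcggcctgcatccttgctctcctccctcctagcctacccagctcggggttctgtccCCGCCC

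A pair of CCAAT boxes stood in the SCD run and 3 Sp1 boxes in that of SREBF1. Over the full 250 bases before each start, searched on both strands, CCAAT was found in 7 of 14 windows, of 5 members, against 32.0% of all 35114 RefSeq windows of that length. GGGCGG was found in 11 of 14 windows, of 8 members, against 42.6% of all windows. The ACLY windows overlap and share boxes of both kinds, and those of FADS2 overlap too, so these counts are not of independent windows. The E-box CACGTG was found in 1 window, that of ELOVL5, against 6.35%. The letters TCACNCCAC, a form of the sterol response element bound by SREBPs, were found in 0 of 14 windows and in 0.883% of all windows. No match says only that these letters are not in this window.

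Total counts ran from 12630675 to 17045454 reads per library. A count of 0 allows up to 3 reads, or 0.177 to 0.228 CPM (the read count relative to the TMM-scaled size of its library), and this floor covers counting error only. The members were far above it: the lowest held 142 reads in a library (ELOVL6) and the highest 11534 (SCD). GFP replicate 1 had reads on 27349 genes, against 19488 to 22073 in the other 11 libraries, so counts of changed members are also given without it. The ORFs matched the labels, with GSTA4 at 416 CPM in its line and 5.47 to 20.2 in the other groups, and with POU5F1, SOX2 and KLF4 at 779, 628 and 928 CPM in the OSK line and at most 1.57 on average in any other group. Of the RPE markers, TTR was at or under the floor on average in every group and RPE65 did not exceed a mean of 0.495 CPM, while the summed level of the 14 markers was 2422 to 2662 CPM in WT cells, 2189.7 to 2523 in the GFP line, 1573 to 1648 in the GSTA4 line and 1391 to 1461 in the OSK line. The summed level of 20 mitosis genes was 82.7 to 96.9 CPM in WT cells, 322 to 356 in the GFP line, 244 to 257 in the GSTA4 line and 675 to 832 in the OSK line. Much of the RPE sum was KRT8, with means of 1247, 843, 679 and 501 CPM in WT, GFP, GSTA4 and OSK. KRT18 added 432, 314, 292 and 228 CPM in the same order. The RPE sum hides single genes: of 12 RPE markers tested, 8 were called higher and 2 lower in GFP against WT. Against GFP, 1 was called higher and 8 lower in GSTA4, and 0 higher and 11 lower in OSK. Against WT, 3 were called higher and 7 lower in GSTA4, and 2 higher and 5 lower in OSK. Fibroblast markers (8 genes) summed to 766 to 787 CPM in WT cells, 709 to 776 in the GFP line, 529 to 558 in the GSTA4 line and 338 to 397 in the OSK line. Nearly all of that sum was PDGFRB, with means of 651, 660, 539 and 343 CPM in the same order, and COL1A1, with 123, 82.6, 4.53 and 20.9. No other gene of that list exceeded a mean of 0.479 CPM. Endothelial markers (4 genes) summed to 71.0 to 94.4, 58.3 to 72.5, 36.1 to 38.7 and 23.6 to 26.5 CPM in the same order. Nearly all of it was KDR, with means of 79.2, 62.0, 37.2 and 23.4 CPM. VWF did not exceed a mean of 2.04 CPM, and PECAM1 and CDH5 did not exceed 0.373. The share of reads on mitochondrial genes was 5.99% to 6.06% in WT, 6.05% to 6.54% in GFP, 6.81% to 6.89% in OSK and 7.55% to 7.82% in GSTA4. These levels move with the groups, the mitochondrial share being highest in the line where most members fell, and their part in the results below was not tested. Adipocyte markers, the other cells rich in these enzymes, summed to 2.28 to 7.43 CPM over 8 genes, with LEP and FABP4 at 0 reads in every library. PPARG averaged 3.06 CPM in the GSTA4 line and 1.00 in the GFP line, and was called higher there (log2 fold change 1.62, SE 0.438, edgeR adjusted p = 0.00822). PLIN4, the other gene of this list tested, was not called in that comparison.

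All 10 members differed among the 4 groups (edgeR quasi-likelihood F test with Benjamini-Hochberg adjustment over all genes tested, threshold 0.05), as did 66.9% of all genes tested. In the GSTA4 line the desaturases SCD, FADS1 and FADS2 fell furthest, FASN, ACACA and ELOVL5 fell less, and SREBF1 and ACSS2 rose, all against the GFP line. In the OSK line 8 members rose against GFP and none fell, and SCD (-0.01 on the log2 scale) and ACACA were not called. The summed level of the 10 members was 2060.0 to 2145 CPM in WT cells, 2257 to 2469.7 in the GFP line, 1328 to 1511 in the GSTA4 line and 2815 to 2910.1 in the OSK line, 4 ranges that do not overlap. In bulk RNA, fewer cells with a transcript and less of it per cell cannot be told apart.

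**Figure D1:**
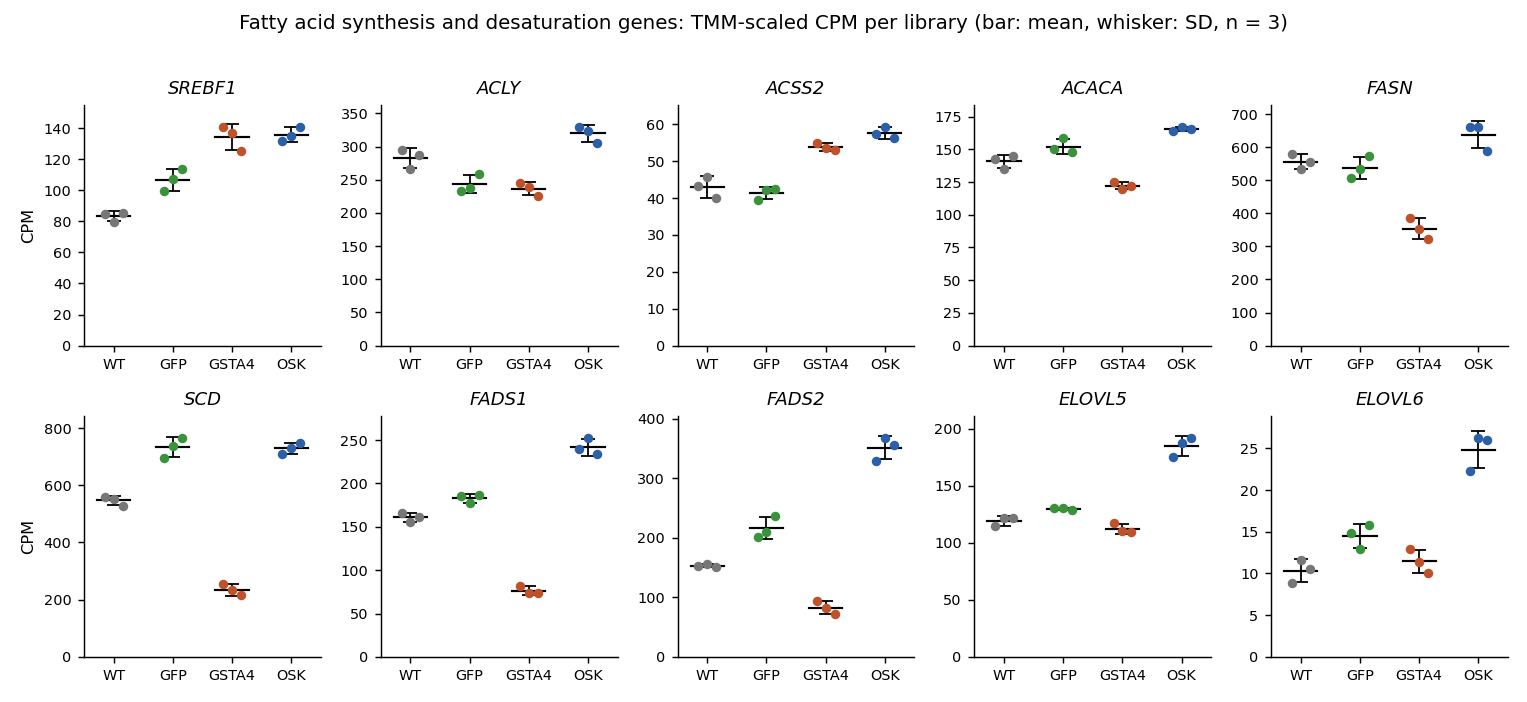
Level of each of the 10 genes in CPM after TMM scaling (vertical axes, linear, from 0) in the WT, GFP, GSTA4 and OSK groups; points are the 3 libraries of a group, bars the mean and whiskers the SD. The GSTA4 libraries lie lowest for SCD, FADS1, FADS2 and FASN, the GSTA4 and OSK libraries share the top range for SREBF1, and for ACSS2 both lie above WT and GFP, with OSK highest.

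SREBF1, the regulator, rose in steps from WT to GFP and from GFP to both other lines. Its level in the 3 libraries, in order of replicate number, was 84.9, 79.5 and 85.2 CPM in WT cells, 99.3, 108 and 113 in the GFP line, 141, 137 and 125 in the GSTA4 line and 132, 135 and 141 in the OSK line. The WT, GFP and GSTA4 ranges did not overlap, and the GSTA4 and OSK ranges did. Against GFP the log2 fold change was 0.33 (SE 0.0644, edgeR adjusted p = 0.000548) in GSTA4 and 0.35 (SE 0.0644, edgeR adjusted p = 0.000162) in OSK, and both comparisons use the same 3 GFP libraries. The difference of OSK from GSTA4 was 0.02 (SE 0.0637, edgeR adjusted p = 0.854), with a 95% interval of -0.12 to 0.15. GFP exceeded WT by 0.36 (SE 0.0654, edgeR adjusted p = 0.000576). The SREBF1 count does not separate its SREBP-1a and SREBP-1c transcripts.

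The enzymes that supply acetyl-CoA moved apart. ACLY, the citrate lyase, was 295, 266 and 287 CPM in the WT libraries, 232, 238 and 258 in GFP, 246, 239 and 225 in GSTA4 and 330.1, 323 and 306 in OSK. The OSK libraries were the highest and the GFP and GSTA4 libraries overlapped at the bottom. ACLY rose by 0.40 (SE 0.0615, edgeR adjusted p = 2.16e-05) on the log2 scale in OSK against GFP and was called lower in GFP than in WT, at -0.22 (SE 0.0615, edgeR adjusted p = 0.0145). In GSTA4 against GFP it differed by -0.04 (SE 0.0617, edgeR adjusted p = 0.683), 95% interval -0.17 to 0.09, and was not called. ACSS2, which activates acetate, was 43.4, 45.7 and 39.9 CPM in WT cells, 39.4, 42.3 and 42.5 in the GFP line, 54.9, 53.7 and 53.0 in the GSTA4 line and 57.3, 59.4 and 56.4 in the OSK line. Here WT and GFP overlapped and both other lines lay above them. ACSS2 rose by 0.38 (SE 0.0718, edgeR adjusted p = 0.000409) in GSTA4 and by 0.48 (SE 0.0715, edgeR adjusted p = 1.34e-05) in OSK, each against GFP. Within a library, the ratio of ACSS2 to ACLY reads was 0.228 ± 0.00628 in GSTA4 (SD, n = 3), 0.170 ± 0.00661 in GFP, 0.180 ± 0.00584 in OSK and 0.153 ± 0.0169 in WT. The call of ACLY in GFP against WT was lost without GFP replicate 2 (adjusted p = 0.0569) and with the 6 libraries of that comparison alone (0.0554). Its call in OSK against WT, at 0.18 (SE 0.0612, edgeR adjusted p = 0.0223), was lost without WT replicate 2 (adjusted p = 0.124), OSK replicate 1 (0.0671) or OSK replicate 2 (0.0701), and with library size alone as the scaling (0.139).

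ACACA and FASN, which commit acetyl-CoA to a chain and build it, were both lowest in the GSTA4 line. ACACA was 142, 135 and 145 CPM in WT cells, 150.0, 159 and 148 in the GFP line, 125, 119.8 and 122 in the GSTA4 line and 164, 167 and 166 in the OSK line. FASN was 579.6, 534 and 556 CPM in WT cells, 508, 533 and 573 in the GFP line, 385, 353 and 323 in the GSTA4 line and 662, 660.2 and 589.6 in the OSK line. For both genes the GSTA4 libraries lay below, and the OSK libraries above, all others. ACACA fell by 0.31 (SE 0.0550, edgeR adjusted p = 0.000181) in GSTA4 against GFP, and FASN fell by 0.61 (SE 0.0709, edgeR adjusted p = 1.37e-06) in the same comparison. FASN rose in OSK against GFP by 0.24 (SE 0.0703, edgeR adjusted p = 0.00739), and ACACA, at 0.12 (SE 0.0545, edgeR adjusted p = 0.0697), was not called. ACACA passed the threshold in that comparison without GFP replicate 2 (adjusted p = 0.0406), under DESeq2 (0.0484) and with RLE scaling (0.05 as rounded). The FASN call in OSK against WT, at 0.20 (SE 0.0702, edgeR adjusted p = 0.0277), was lost without WT replicate 2 (adjusted p = 0.109), WT replicate 3 (0.062), OSK replicate 1 (0.0844) or OSK replicate 2 (0.108), and with library size alone (0.129).

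SCD, the stearoyl-CoA desaturase that sets the ratio of saturated to monounsaturated chains, had the largest drop of the members in the GSTA4 line. It was 254, 233 and 215 CPM there, against 696, 736 and 766 in GFP, 558, 554 and 529 in WT and 710.1, 730.2 and 748 in OSK. The highest GSTA4 library, at 254 CPM, lay far under the lowest of the other 9, at 529. The log2 fold change was -1.64 (SE 0.0655, edgeR adjusted p = 1.28e-13) in GSTA4 against GFP and -1.22 (SE 0.0649, edgeR adjusted p = 8.35e-12) against WT. Of all genes tested, 2.79% changed further than SCD in the first of these comparisons. The OSK range lay within the GFP range, with a log2 difference of -0.01 (SE 0.0633, edgeR adjusted p = 0.944) and a 95% interval of -0.14 to 0.13. GFP lay above WT by 0.42 (SE 0.0635, edgeR adjusted p = 8.5e-05). SREBF1 and SCD thus had different orders over the groups, and the ratio of SREBF1 to SCD reads within a library was 0.152 ± 0.00875 in WT cells, 0.146 ± 0.00270 in the GFP line, 0.574 ± 0.0178 in the GSTA4 line and 0.186 ± 0.00187 in the OSK line.

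The desaturases of polyunsaturated chains fell in the GSTA4 line and rose in the OSK line. FADS1, the delta-5 desaturase, was 166, 155 and 161 CPM in WT cells, 185, 177 and 187 in the GFP line, 82.3, 73.3 and 73.5 in the GSTA4 line and 239, 253 and 233 in the OSK line. FADS2, the delta-6 desaturase, was 152, 157 and 151 CPM in WT cells, 201, 211 and 237 in the GFP line, 93.2, 82.7 and 71.3 in the GSTA4 line and 330.0, 368 and 356 in the OSK line. Both genes had the same order, GSTA4 below WT, WT below GFP and GFP below OSK, with no overlap between any 2 groups. FADS2 had the widest range of all members, a 4.26-fold ratio of the highest to the lowest group mean, followed by FADS1 at 3.17 and SCD at 3.13. In GSTA4 against GFP the log2 fold change was -1.26 (SE 0.0618, edgeR adjusted p = 3.12e-12) for FADS1 and -1.39 (SE 0.0821, edgeR adjusted p = 5.04e-11) for FADS2. In OSK against GFP it was 0.40 (SE 0.0591, edgeR adjusted p = 1.13e-05) for FADS1 and 0.70 (SE 0.0784, edgeR adjusted p = 3.01e-07) for FADS2. The ratio of FADS2 to FADS1 reads within a library was 0.955 ± 0.0503 in WT cells, 1.18 ± 0.0931 in the GFP line, 1.08 ± 0.0921 in the GSTA4 line and 1.45 ± 0.0735 in the OSK line (SD, n = 3), highest in the OSK line. GFP exceeded WT by 0.50 (SE 0.0793, edgeR adjusted p = 0.000158) for FADS2 and by 0.19 (SE 0.0595, edgeR adjusted p = 0.0296) for FADS1. The FADS1 call in GFP against WT was lost without WT replicate 2 (adjusted p = 0.119), WT replicate 3 (0.0664), GFP replicate 1 (0.0652) or GFP replicate 3 (0.0799), with no filter on low counts (0.127) and with the 6 libraries alone (0.0613).

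Both elongases rose in the OSK line. ELOVL5, which lengthens polyunsaturated chains between the FADS2 and FADS1 steps, was 114, 122 and 122 CPM in WT cells, 130.2, 130.2 and 129 in the GFP line, 117, 109.9 and 109.7 in the GSTA4 line and 175, 187 and 192 in the OSK line. ELOVL6, which lengthens palmitate, was 8.83, 11.7 and 10.6 CPM in WT cells, 14.9, 12.9 and 15.8 in the GFP line, 12.9, 11.3 and 10.1 in the GSTA4 line and 22.3, 26.3 and 26.0 in the OSK line. The OSK libraries lay above all others for both genes. Against GFP, ELOVL6 rose in OSK by 0.78 (SE 0.125, edgeR adjusted p = 3.49e-05) and ELOVL5 by 0.51 (SE 0.0570, edgeR adjusted p = 2.74e-07). In GSTA4 against GFP, ELOVL5 was called lower, at -0.21 (SE 0.0577, edgeR adjusted p = 0.00992), and ELOVL6, at -0.34 (SE 0.133, edgeR adjusted p = 0.0601), was not called. The ELOVL5 call was lost without GSTA4 replicate 2 (adjusted p = 0.0528) or GSTA4 replicate 3 (0.0524) and with no filter on low counts (0.0552). ELOVL6 passed the threshold without WT replicate 1 (adjusted p = 0.038), GFP replicate 2 (0.0386) or GSTA4 replicate 1 (0.0391), with the 6 libraries alone (0.0455) and with a filter at a mean of 1 CPM (0.049). ELOVL6 was higher in GFP than in WT, at 0.49 (SE 0.134, edgeR adjusted p = 0.012), a call lost without WT replicate 1 (adjusted p = 0.0601) or GFP replicate 3 (0.0549).

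Counted over the members, 8 of 10 changed in GSTA4 against GFP, 2 higher and 6 lower, against 29.2% of all genes tested, 14.7% higher and 14.6% lower. Their median log2 fold change was -0.33, and that of all genes tested 0.01. The groups did not overlap for 9 of 10 members, against 42.3% of all genes. In OSK against GFP, 8 of 10 rose and 0 fell, against 45.9% of all genes called, 23.1% higher and 22.8% lower. The median was 0.40, and -0.02 over all genes tested, and 9 of 10 members had groups that did not overlap, against 54.7%. With library size alone in place of TMM, the share of all calls in OSK against GFP that were higher went from 50.4% to 39.8%. Under that scaling 8 members were again called in OSK against GFP, all higher. Without GFP replicate 1 the counts were also 8 members in each of these comparisons.

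**Figure D2:**
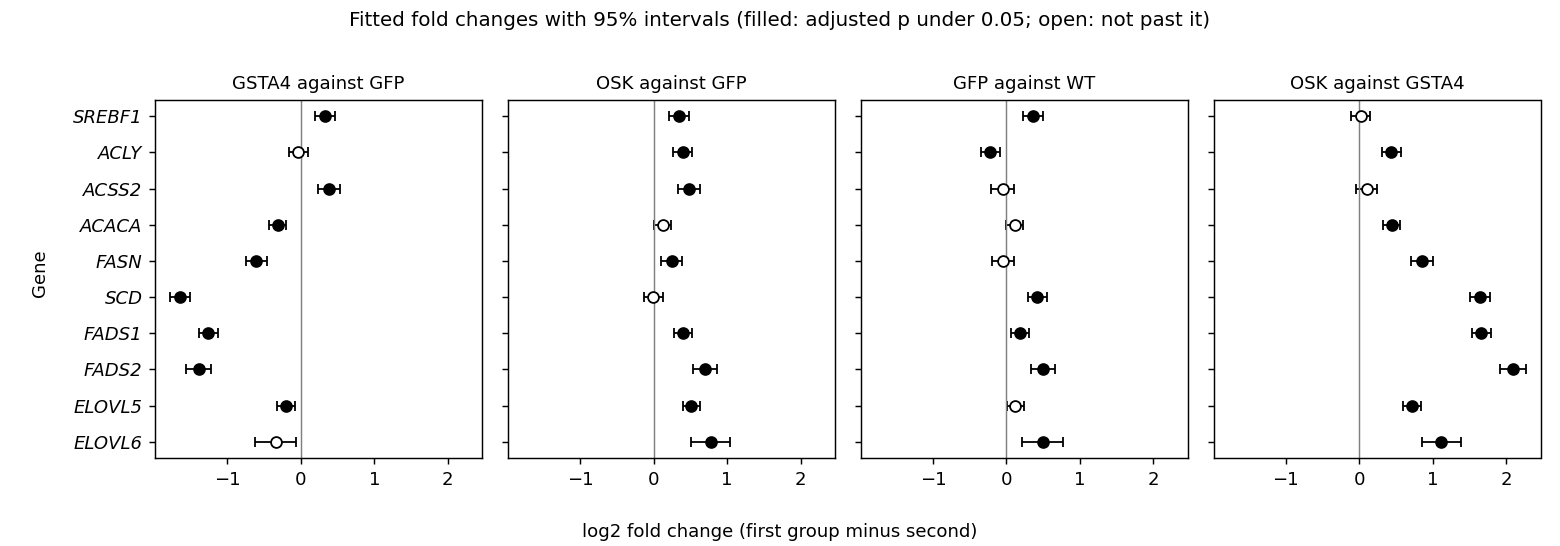
Log2 fold change of each of the 10 genes (horizontal axis) in 4 comparisons, with 95% intervals from the edgeR fit; filled points passed the adjusted p threshold of 0.05 and open points did not. In GSTA4 against GFP, SCD (-1.64), FADS2 (-1.39) and FADS1 (-1.26) lie far to the left and SREBF1 and ACSS2 to the right, and in OSK against GFP SCD (-0.01) lies nearest to 0.

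Set against each other, the OSK and GSTA4 lines differed in 8 of 10 members, all higher in OSK, against 47.8% of all genes called, 24.1% higher and 23.8% lower. Their groups did not overlap for 9 of 10 members, against 58% of all genes. With library size alone the share of all calls that were higher in OSK went from 50.3% to 42.5%. FADS2 differed by 2.09 (SE 0.0827, edgeR adjusted p = 1.87e-14) on the log2 scale, FADS1 by 1.66 (SE 0.0619, edgeR adjusted p = 6.67e-15) and SCD by 1.64 (SE 0.0655, edgeR adjusted p = 2.17e-14). ELOVL6 (1.12), FASN (0.85), ELOVL5 (0.72), ACACA (0.44) and ACLY (0.44) followed. SREBF1 and ACSS2, at 0.10 (SE 0.0702, edgeR adjusted p = 0.259) for the latter, were not called. The pair that rose in the GSTA4 line is thus the pair whose levels in the GSTA4 and OSK lines were not told apart by this test.

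The control line differed from WT as well. In GFP against WT, 5 members were called higher and 1, ACLY, lower, against 22.2% of all genes tested, 11% higher and 11.2% lower, and 8 of 10 had groups that did not overlap, against 34.6%. The members called higher were FADS2, ELOVL6, SCD, SREBF1 and FADS1, with log2 fold changes from 0.19 to 0.50. Without GFP replicate 1 the count was 4 higher and 1 lower, since FADS1 no longer passed. Against WT, the GSTA4 line had 2 members higher, SREBF1 (0.69) and ACSS2 (0.33), and 6 lower, against 38.6% of all genes, 19.7% higher and 19% lower. There 8 of 10 had groups that did not overlap, against 49%. The 6 were SCD (-1.22), FADS1 (-1.07), FADS2 (-0.90), FASN (-0.65), ACLY (-0.26) and ACACA (-0.20). The OSK line exceeded WT in all 10, against 45.4% of all genes called, 22.7% higher and 22.7% lower, and no member's groups overlapped, against 53.5% of genes. The log2 fold changes ran from ACLY (0.18) to ELOVL6 (1.27). With library size alone the share of all calls that were higher in that comparison went from 50.1% to 41.1%.

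Per kilobase of exon (GENCODE 29, all exons of a gene merged), SCD was the most abundant member in WT, GFP and OSK, with mean levels of 102, 137 and 136 CPM per kilobase. In the GSTA4 line it stood at 43.7 CPM per kilobase, behind ACLY at 45.3. FASN came next there, at 37.7, and second in the other groups. ELOVL6 was the least abundant in every group, at 1.42 to 3.41 CPM per kilobase. Within a library, the ratio of SCD to FASN reads was 0.984 ± 0.0461 in WT cells, 1.36 ± 0.0235 in the GFP line, 0.663 ± 0.00352 in the GSTA4 line and 1.15 ± 0.105 in the OSK line.

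Of the genes beside SREBF1 in SREBP control, SREBF2 and INSIG1 were lowest in the GSTA4 line and highest in the OSK line. SCAP also averaged lowest in GSTA4 (125 CPM) and highest in OSK (147). It was not called in GSTA4 against GFP, at -0.06 (SE 0.0550, edgeR adjusted p = 0.418). SREBF2, which encodes SREBP-2, the paralog best known for sterol synthesis, was 611, 548 and 555 CPM in WT cells, 552, 613 and 616 in the GFP line, 478, 464 and 456 in the GSTA4 line and 778, 801 and 804 in the OSK line. It fell by 0.35 (SE 0.0612, edgeR adjusted p = 0.000194) in GSTA4 and rose by 0.42 (SE 0.0610, edgeR adjusted p = 9.55e-06) in OSK, each against GFP. INSIG1, the sterol-regulated anchor that keeps SREBPs in the endoplasmic reticulum and is itself an SREBP target, was 66.3, 70.8 and 67.4 CPM in WT cells, 98.9, 119 and 118 in the GFP line, 31.7, 29.4 and 26.1 in the GSTA4 line and 143, 145 and 144 in the OSK line. Its 4 groups did not overlap and had the order of FADS1 and FADS2. Its log2 fold change was -1.94 (SE 0.0810, edgeR adjusted p = 2.71e-13) in GSTA4 and 0.36 (SE 0.0732, edgeR adjusted p = 0.000389) in OSK, each against GFP.

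**Figure D3:**
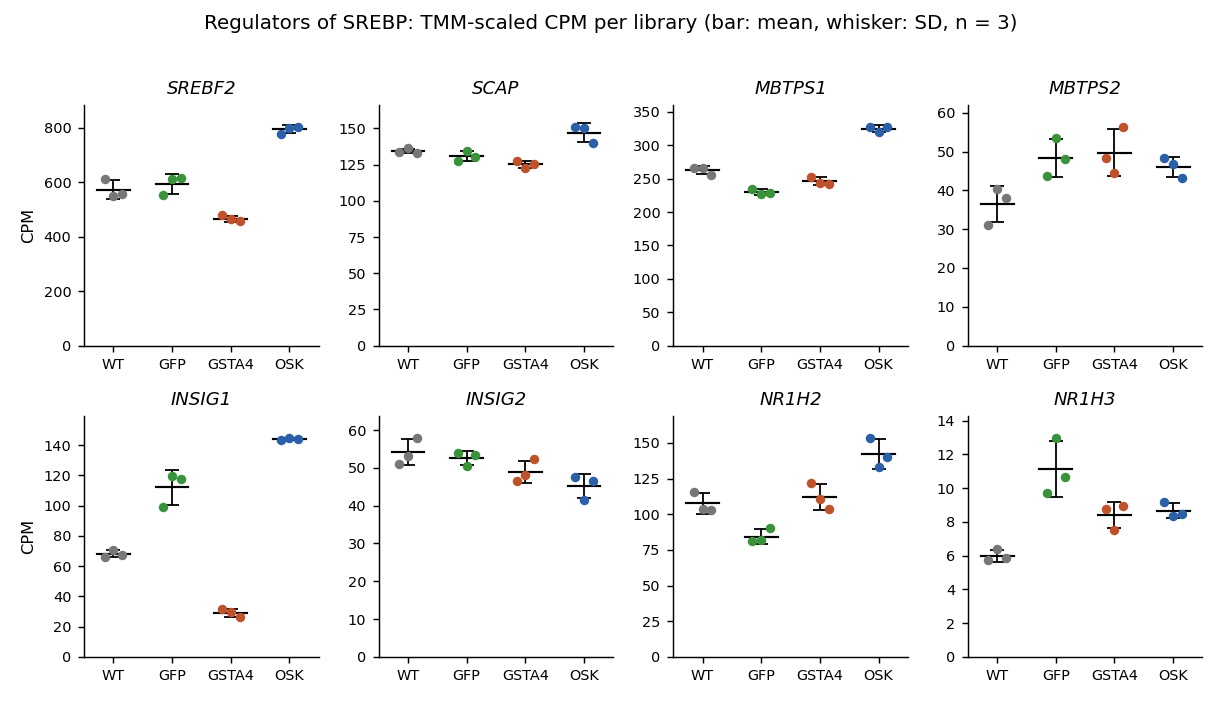
Level in CPM after TMM scaling (vertical axes, linear, from 0) of genes that control SREBP cleavage or activate SREBF1, in the WT, GFP, GSTA4 and OSK groups; points are the 3 libraries of a group, bars the mean and whiskers the SD. INSIG1 and SREBF2 are lowest in the GSTA4 libraries and highest in the OSK libraries, as is SCAP over a narrower range.

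Over the 14 genes of this list, 1 was called higher and 4 lower in GSTA4 against GFP, 35.7% against 29.2% of all genes, with a median log2 fold change of 0.02. NR1H2, the liver X receptor beta, which activates SREBF1, rose by 0.41 (SE 0.0746, edgeR adjusted p = 0.000272). Its mean was 108 CPM in WT cells, 84.4 in the GFP line, 112 in the GSTA4 line and 142 in the OSK line. Its WT range (103 to 116 CPM) and GSTA4 range (104 to 122) overlapped, and SREBF1 was higher in GFP than in WT. MLXIP, a glucose-sensing factor, was called lower at -0.24 (SE 0.0713, edgeR adjusted p = 0.0136), and NR1H3, the liver X receptor alpha, at -0.40 (SE 0.145, edgeR adjusted p = 0.0422). The count of lower genes was 2 without GFP replicate 3 or GSTA4 replicate 2. The MLXIP call was lost without GFP replicate 3 (adjusted p = 0.0694) or GSTA4 replicate 2 (0.0662). The NR1H3 call was lost without any 1 of GFP replicates 2 and 3, the 3 GSTA4 replicates and OSK replicate 2, with no filter and under DESeq2, with adjusted p from 0.0532 to 0.2. In OSK against GFP, 7 were called higher and 3 lower, 71.4% against 45.9% of all genes, with a median of 0.18. MLX, the partner of the glucose-sensing factors, rose by 0.91 (SE 0.0924, edgeR adjusted p = 7.55e-08), NR1H2 by 0.75 (SE 0.0742, edgeR adjusted p = 4.7e-08) and the site-1 protease MBTPS1 by 0.50 (SE 0.0524, edgeR adjusted p = 1.18e-07). SCAP, the SREBP escort, rose by 0.17 (SE 0.0547, edgeR adjusted p = 0.0161), a call lost without OSK replicate 2 (adjusted p = 0.0603) and with library size alone (0.161). MLXIP (-0.29), INSIG2 (-0.22) and NR1H3 (-0.36) were called lower. The INSIG2 call was lost without GFP replicate 1, GFP replicate 3 or OSK replicate 2 and with no filter (adjusted p 0.0688 to 0.152). Without GFP replicate 3 or OSK replicate 2 the list had 1 gene lower in OSK. The NR1H3 call in OSK was lost when any of 10 libraries was left out singly and under 4 other alternatives (adjusted p 0.0504 to 0.248). MBTPS2, RXRA and RNF139 were not called in either comparison, nor was MLXIPL, at 0.367 to 0.981 CPM.

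Among the other elongation and desaturation genes, of which 14 were tested, 1 rose and 3 fell in GSTA4 against GFP, 28.6% of the list and near the 29.2% of all genes. HACD2, a dehydratase of the elongation cycle, fell by 1.14 (SE 0.0727, edgeR adjusted p = 1.57e-10), and the elongase ELOVL7 fell by 0.47 (SE 0.102, edgeR adjusted p = 0.00135). CYB5R3, the reductase that feeds electrons through cytochrome b5 to the desaturases, rose by 0.46 (SE 0.0642, edgeR adjusted p = 1.47e-05). In OSK against GFP, 6 rose and 3 fell, 64.3% against 45.9% of all genes. FADS3, the third gene of the FADS cluster on chromosome 11, changed by -1.12 (SE 0.0640, edgeR adjusted p = 1.19e-11), against the direction of FADS1 and FADS2. HACD1 changed by -1.30 (SE 0.112, edgeR adjusted p = 5.93e-09), and TECR, the reductase that closes the elongation cycle, by 0.65 (SE 0.0763, edgeR adjusted p = 5.86e-07). Medians of this list were 0.03 in GSTA4 and 0.11 in OSK. Without WT replicate 1 or GFP replicate 1, 2 genes of the list rose in GSTA4.

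Of 20 genes that feed carbon and NADPH into the pathway, 3 rose and 2 fell in GSTA4 against GFP, and 3 rose and 3 fell in OSK, 25% and 30% of the list against 29.2% and 45.9% of all genes, so neither share exceeded the background. IDH1, the cytosolic NADP-dependent isocitrate dehydrogenase, was 62.6 ± 5.67 CPM in WT cells (SD, n = 3), 59.4 ± 1.14 in the GFP line, 48.9 ± 5.62 in the GSTA4 line and 118 ± 3.23 in the OSK line. It rose by 1.00 (SE 0.0789, edgeR adjusted p = 1.85e-09) in OSK and was called lower in GSTA4 at -0.28 (SE 0.0817, edgeR adjusted p = 0.0133), a call lost without GSTA4 replicate 3 (adjusted p = 0.106). ALDH1L1, a folate enzyme that makes NADPH, changed by -1.09 (SE 0.245, edgeR adjusted p = 0.00204) in GSTA4, and ACO1 by -0.26 (SE 0.0638, edgeR adjusted p = 0.00258) in OSK. The list's count of genes that rose in GSTA4 was 1 without GFP replicate 1, GSTA4 replicate 2 or GSTA4 replicate 3, and the count that fell was 1 without the last of these. With library size alone, 5 fell in OSK.

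Of 15 tested genes that act beside the carboxylase and synthase, 4 rose and 2 fell in GSTA4 against GFP, and 5 rose and 2 fell in OSK, 40% and 46.7% of the list against 29.2% and 45.9% of all genes. ACACB, the mitochondrial-membrane carboxylase whose malonyl-CoA restrains fatty acid oxidation, changed by -0.68 (SE 0.0920, edgeR adjusted p = 8.41e-06) in GSTA4 and by -0.90 (SE 0.0929, edgeR adjusted p = 9.52e-08) in OSK, lower in both. PRKAA2, a catalytic subunit of AMPK, the kinase that inactivates ACACA, moved in opposite directions, by 0.69 (SE 0.0896, edgeR adjusted p = 5.42e-06) in GSTA4 and -0.62 (SE 0.0948, edgeR adjusted p = 1.82e-05) in OSK. MID1IP1, which helps ACACA polymerize, fell by 0.47 (SE 0.0797, edgeR adjusted p = 0.000146) in GSTA4. BTD, which recycles the biotin that carboxylases need, rose by 0.38 (SE 0.0657, edgeR adjusted p = 7.32e-05) in OSK. Its mean was 56.4 CPM in WT cells, 46.8 in the GFP line and 61.0 in the OSK line. With library size alone, 2 genes of this list rose in OSK, and 3 rose without OSK replicate 2.

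Of 19 tested genes of fatty acid activation and glycerolipid synthesis, 3 rose and 5 fell in GSTA4 against GFP, and 5 rose and 4 fell in OSK, 42.1% and 47.4% of the list against 29.2% and 45.9% of all genes. PNPLA3, a lipid-droplet protein that SREBP-1 and its relatives induce, fell by 1.44 (SE 0.0849, edgeR adjusted p = 5.07e-11) in GSTA4, the acyl-CoA synthetase ACSL1 fell by 0.47 (SE 0.0660, edgeR adjusted p = 1.56e-05) and the lipin LPIN2 fell by 0.26 (SE 0.0602, edgeR adjusted p = 0.00222). LPCAT3, which puts polyunsaturated chains into phospholipids, was 22.9 ± 0.374 CPM in WT cells (SD, n = 3), 24.0 ± 1.25 in the GFP line, 19.2 ± 1.02 in the GSTA4 line and 144 ± 8.41 in the OSK line. It rose by 2.58 (SE 0.0747, edgeR adjusted p = 2.18e-16) in OSK. AGPAT2 changed by -0.85 (SE 0.103, edgeR adjusted p = 8.44e-07) and the fatty acid transporter SLC27A1 by 0.61 (SE 0.103, edgeR adjusted p = 5.93e-05) in OSK. Without GFP replicate 1 or GSTA4 replicate 3, 1 gene of this list rose in GSTA4.

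Of 26 tested genes of beta-oxidation, the breakdown of fatty acids, 16 rose and 1 fell (0 without GFP replicate 3 or GSTA4 replicate 3) in GSTA4 against GFP. The share called was 65.4% against 29.2% of all genes, with a median log2 fold change of 0.33. The list holds the regulators PPARA, PPARD and PPARGC1A beside enzymes and carriers, and its counts include them. ACADVL, the very-long-chain acyl-CoA dehydrogenase, rose by 0.64 (SE 0.0553, edgeR adjusted p = 1.95e-08), CPT1A, which carries chains into mitochondria, by 0.51 (SE 0.0693, edgeR adjusted p = 1.01e-05), and the hydratase ECHS1 by 0.45 (SE 0.0659, edgeR adjusted p = 2.74e-05). The mean of CPT1A was 82.0 CPM in WT cells, 64.6 in the GFP line and 91.9 in the GSTA4 line. In OSK against GFP, 8 rose and 6 fell, 53.8% against 45.9% of all genes, with a median of 0.08. However, 4 rose with library size alone and 3 fell without OSK replicate 1. CPT1A rose there by 0.92 (SE 0.0688, edgeR adjusted p = 7.7e-10) and the peroxisomal thiolase ACAA1 by 0.46 (SE 0.0742, edgeR adjusted p = 3.38e-05). In OSK against GSTA4, 2 genes of the list were higher and 13 lower, 57.7% against 47.8% of all genes. Sterol synthesis genes, the other large SREBP target group, moved in both lines. In GSTA4 against GFP 0 of 22 rose and 20 fell, 90.9% against 29.2% of all genes, with a median of -0.92. In OSK against GFP 20 rose and 1 fell, 95.5% against 45.9% of all genes, with a median of 0.67. In OSK against GSTA4 all 22 were higher, against 24.1% of all genes. Their summed level was 1098 to 1169.9 CPM in GSTA4, 1724 to 1959.8 in WT, 2057 to 2294 in GFP and 3370.2 to 3524 in OSK, the order of the members' sum. These lists were described by counts and medians, with no set test.

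**Figure D4:**
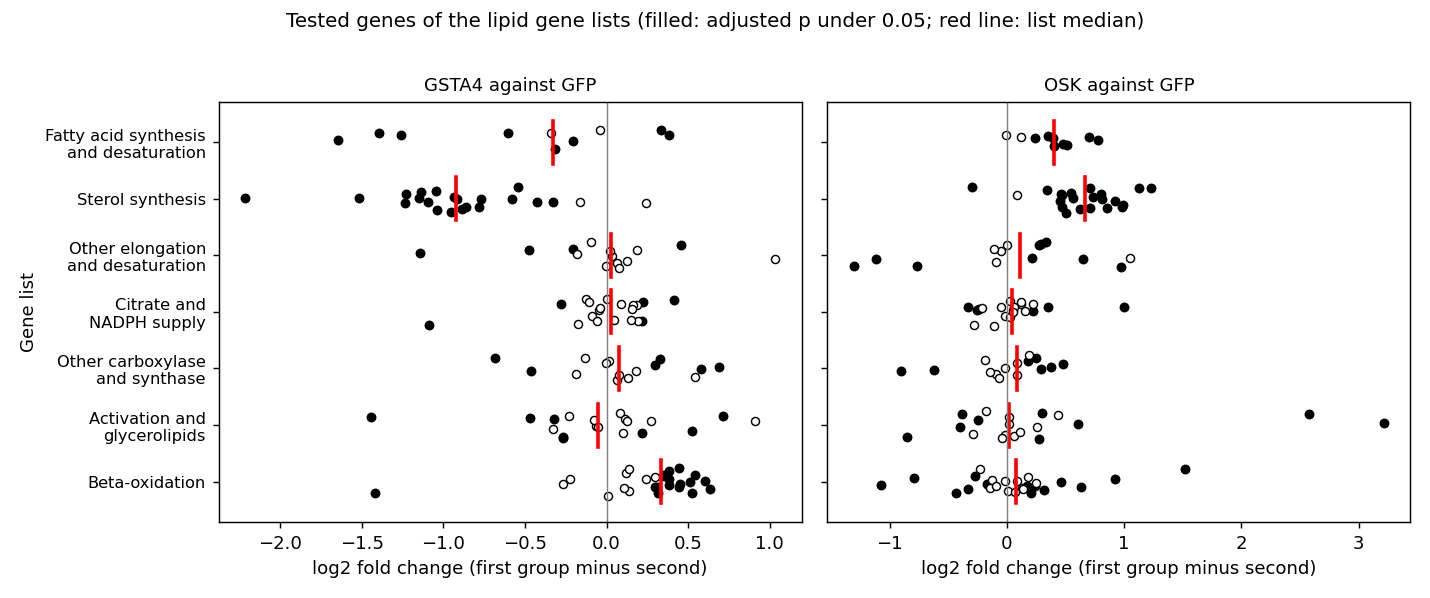
Log2 fold change against GFP (horizontal axes, with different ranges) of every tested gene of 7 lists (vertical axis), in the GSTA4 line on the left and the OSK line on the right; each point is 1 gene, filled where its adjusted p was under 0.05, and each red line the list's median. Of 22 sterol synthesis genes, 20 fell in GSTA4 (median -0.92) and 20 rose in OSK (median 0.67), and the 10 genes of fatty acid synthesis and desaturation have medians of -0.33 and 0.40. Of all genes tested, 14.6% fell in GSTA4 and 23.1% rose in OSK.

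Among 13686 other genes with a mean of at least 1 CPM, the profiles over the 12 libraries most like the median profile of the members were those of ID4, SREBF2, SLC46A3, EZR and ASPH, at Euclidean distances of 0.180, 0.235, 0.235, 0.236 and 0.252 on the centred log2 CPM scale. ID4, an inhibitor of basic helix-loop-helix factors, averaged 183 CPM in WT cells, 198 in the GFP line, 153 in the GSTA4 line and 247 in the OSK line. FADS2, the member with the widest range, was most like CYP51A1 (0.434), HPS5 (0.436), MSMO1 (0.454) and the noncoding RNA OLMALINC (0.598). CYP51A1 and MSMO1 are enzymes of cholesterol synthesis, and MSMO1 averaged 67.4 CPM in WT cells, 98.1 in the GFP line, 34.3 in the GSTA4 line and 178 in the OSK line. Between members, the nearest pairs were ACLY and ACACA (0.494), ELOVL5 and ACACA (0.577), SCD and FADS1 (0.598) and SREBF1 and ACSS2 (0.611). These distances rank genes over the same 12 libraries, are smaller for genes that vary little, and carry no test.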

How the data were processed

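The values the authors deposited are whole read counts, not normalized, for each gene in 12 poly(A) libraries. The submitters' processing notes name STAR 2.7.1a, featureCounts 1.6.2 and the builds GRCh38 (hg38) and GRCm38 (mm10), with no role given. The annotation release and strand setting are not given in the sources used here. Of 60605 lines, 20014 had no gene name and stayed out of library sizes and tests. Among the 40591 named lines, 1272 shared a symbol and were kept apart.

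Counts were tested with edgeR 4.0.16 (limma 3.58.1, R 4.3.3) by the quasi-likelihood F test, after filterByExpr and TMM scaling. All 12 libraries entered 1 fit with a mean per group, with 6 contrasts and an F test over the 4 groups. P-values are two-sided and adjusted by Benjamini-Hochberg over the 15179 genes tested in each contrast, with a threshold of 0.05. A gene is called where it passed. Standard errors (SE) were taken as the log2 fold change divided by the square root of its F statistic, and intervals are at 95%. Levels are given in CPM on TMM-scaled library sizes, as mean and SD of the 3 libraries. The biological coefficient of variation common to all genes stood at 7.91%. The fitting script was tested on simulated data. No pair of libraries within a group differed as little as sampling noise would give (chi-square per degree of freedom 2.54 to 17.5 over 12 pairs).

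The members and lists were chosen with earlier results of these data known. Every member is reported. Of the other lists, the text names the called genes with the 3 lowest adjusted p in GSTA4 or OSK against GFP, every SREBP regulator, and the 5 genes nearest in profile, except that a few of these genes are not reported here. Coordinates come from GENCODE 29 and RefSeq, and sequences from RefSeq. The alternatives tried were DESeq2 1.42.0, a replicate block, scaling by RLE or by library size alone, a filter at a mean of 1 CPM or none, the 6 libraries of a comparison alone, and each library left out in turn. Of the remaining marker lists, leukocyte genes summed to at most 1.06 and pluripotent cell genes to at most 4.71.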

Additional observations from a re-analysis of the deposited data

How the results depend on the processing

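Each member's 6 fold changes were recomputed under 19 alternatives, 1140 values in all. Of these, 1102 kept their direction and their side of the threshold, 22 fell short of it, 8 passed it anew and 8 changed sign. Both genes that changed sign had differences that were not called. SCD in OSK against GFP was 0.00298 on the log2 scale with RLE scaling, 0.0115 with no filter, 0.00168 without GFP replicate 2, 0.0323 without GFP replicate 3, 0.0227 without OSK replicate 1 and 0.00295 with DESeq2, with -0.0417 to 0.0323 over the libraries left out singly. SREBF1 in OSK against GSTA4 was -0.0471 with library size alone and -0.0317 without GSTA4 replicate 3, with a highest value of 0.0549 over such omissions. Counts of members and of all genes called stayed within 1.5 times their value in all 19. With any 1 library left out, 7 to 9 members were called in GSTA4 against GFP. For the named genes of the other lists, 822 of 855 values kept their call and 33 fell short, none changing sign. Only genes called in the main fit entered that set, mostly those with the 3 lowest adjusted p of a list. Few losses were thus likely from the choice alone. With no filter the median of all genes moved to -0.21 in GSTA4 against GFP, -0.31 in OSK against GFP and 0.16 in GFP against WT.

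The labels do not say what the replicate numbers mark, and they were not taken to pair the libraries. Deviations of libraries with the same number correlated from -0.0193 to 0.153 over 18 pairs, 3 of them over 0.1, and those with different numbers from -0.098 to 0.077 over 36 pairs, 0 of them over 0.1. The best match was the own number in 17 of 36, at most a weak hint from the data of some pairing. Each match was picked among only 3 libraries, so a part of them falls on the own number without any pairing. The 36 matches are also not independent. With a replicate block the members called were 6 in GFP against WT, 10 in OSK against WT and 8 in each of the other 4 comparisons, as without it, and all genes called in GSTA4 against GFP went from 4439 to 4734. Depth limits ELOVL6 most, with 142 reads in its lowest library.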
